A study of Mus musculus with 35 samples.

Results

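The miRNA population of vehicle-treated mouse liver was described from 7 of the 35 arrays of the series, all those titled DMSO_Day 1 (3 arrays) or DMSO_Day 30 (4 arrays), and none of the 28 arrays of ENU-treated mice was used. Each array measured the liver of 1 mouse, a 6-month-old female Big Blue mouse, a transgenic line that carries a recoverable reporter for mutation assays. The mice of both groups had received a single intraperitoneal injection of dimethylsulfoxide (DMSO), the solvent in which ENU was given to the other mice, and differed in the day of sampling, day 1 or day 30. The labels give 3 mice for day 1 and 4 for day 30, while the study's methods give 4 and 3, and the records inside the 3 arrays titled day 1 name day 0, so that the day is used here only as a label.

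miRNAs are short RNAs cut from hairpin precursors and loaded onto Argonaute proteins, which they guide to messenger RNAs. Bases 2 to 8 of the mature miRNA, the seed, do most of the pairing with the target, and miRNAs with the same seed form a family. Either arm of the hairpin, 5p or 3p, can be loaded, and a name with a star marks the arm that was taken as the minor one when it was named. Hepatocytes make up most of the liver mass and are known for very high miR-122, a regulator of lipid metabolism, while blood, endothelial and other cells of the tissue bring miRNAs of their own.

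Of the 376 miRNAs on the array, 248 were matched to a single mature sequence of RefSeq (GRCm38.p6), 104 by exact name and 144 with the arm usually meant by a name without an arm. The sequences below are those of the most abundant miRNAs and of the families that held the largest shares of the measured total, written 5′ to 3′ with the seed in capitals. miR-122 ranked first on every array but was not among the matched sequences. The matching left out names without an entry, names with more than a single sequence, and all miRNAs with a hairpin on a chromosome that was set aside. miR-194, miR-21 and miR-126-3p, at ranks 2, 3 and 8, each had a seed that no other matched miRNA shared.
miR-194: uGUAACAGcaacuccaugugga
miR-21: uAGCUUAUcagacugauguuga
miR-126-3p: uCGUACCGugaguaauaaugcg

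The let-7 seed GAGGUAG was shared by 9 measured miRNAs, of which 6 are shown because they lay within the first 16 of the ranking and differ from let-7a at 1 or 2 bases of 22.
let-7f: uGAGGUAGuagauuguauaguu
let-7g: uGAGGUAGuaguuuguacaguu
let-7c: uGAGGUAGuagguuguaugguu
let-7a: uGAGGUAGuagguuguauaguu
let-7d: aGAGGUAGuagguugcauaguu
let-7b: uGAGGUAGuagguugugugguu

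The seed AGCAGCA was shared by 6 measured miRNAs, and the 5 below show its most abundant members, miR-16 and miR-195, beside the miRNAs of neighbouring hairpins, miR-15b and miR-15a for the copies of miR-16 and miR-497 for miR-195.
miR-16: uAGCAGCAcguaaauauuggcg
miR-195: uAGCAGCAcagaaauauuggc
miR-15b: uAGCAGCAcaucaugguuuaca
miR-15a: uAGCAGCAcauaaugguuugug
miR-497: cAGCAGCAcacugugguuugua

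The last families shown are miR-148a, miR-148b and miR-152 with the seed CAGUGCA, and miR-192 and miR-215 with the seed UGACCUA, both of which are led by miRNAs known for high levels in hepatocytes.
miR-148a: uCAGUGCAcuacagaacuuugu
miR-148b: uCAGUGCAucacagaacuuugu
miR-152: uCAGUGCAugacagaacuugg
miR-192: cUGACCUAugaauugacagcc
miR-215: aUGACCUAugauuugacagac

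Ct counts the PCR cycles a well needed to reach a fixed fluorescence. Levels are given as ΔCt, for which the average Ct of 4 small RNAs measured on that array (U6, snoRNA142, snoRNA202 and snoRNA251) was subtracted, so that a lower ΔCt stands for more RNA and 1 cycle for a factor of 2. Setting the level of 1 miRNA against that of another assumes that their assays amplify equally well, which these files cannot test, and assays of near-identical sequences may share product, which was not tested. In bulk liver, fewer cells of a type and less RNA per cell cannot be told apart.

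A few miRNAs held most of the measured total. miR-122 had a ΔCt of -6.75, -7.11 and -6.78 in the 3 arrays labelled day 1 and of -8.08, -8.28, -8.12 and -8.04 in the 4 labelled day 30, with a mean of -7.59 ± 0.68 (SD, n = 7). It lay 2.51 ± 0.34 cycles (SD, n = 7) ahead of miR-194, the second by mean ΔCt, which stands for a 5.70-fold higher level. With the level taken as 2 to the power of minus ΔCt, miR-122 made up between 31.7% and 38.9% of the sum of all 376 miRNAs, with a mean of 33.8% ± 2.40 (SD, n = 7). The first 10 miRNAs held 69.7% ± 3.45 (SD, n = 7) of the sum, the first 50 held 96.8% ± 0.649 (SD, n = 7), and the remaining miRNAs shared the rest. These shares do not depend on the reference RNAs, which cancel within an array.

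The next places were held by miR-194 (ΔCt -5.08 ± 0.95), miR-21 (-5.04 ± 0.97) and miR-16 (-4.99 ± 0.95; SD, n = 7 for each). miR-194 and miR-192 are encoded together, miR-21 is expressed in most tissues and rises in growing or injured liver, and miR-16 is a widely expressed regulator of the cell cycle. miR-194 had a ΔCt of -4.17, -4.66 and -3.57 in the arrays labelled day 1 and of -5.54, -6.02, -5.90 and -5.71 in those labelled day 30. The order of these 3 was not settled, since miR-194 lay ahead of miR-21 in 4 of 7 arrays and miR-21 ahead of miR-16 in 5 of 7, with mean differences of 0.04 ± 0.23 and 0.05 ± 0.28 cycles (SD, n = 7). miR-16 lay ahead of miR-192 in all 7 arrays, by 0.43 ± 0.20 cycles (SD, n = 7). Of the 20 neighbouring pairs from the first to the 21st place, 5 differed by more than the SD of their difference over the arrays and 15 did not. From miR-22, the 11th, to miR-24, the 21st, no neighbours differed beyond this spread, and that stretch held 5 let-7 miRNAs, miR-101b, miR-29a, miR-30a and miR-451.

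**Figure D1:**
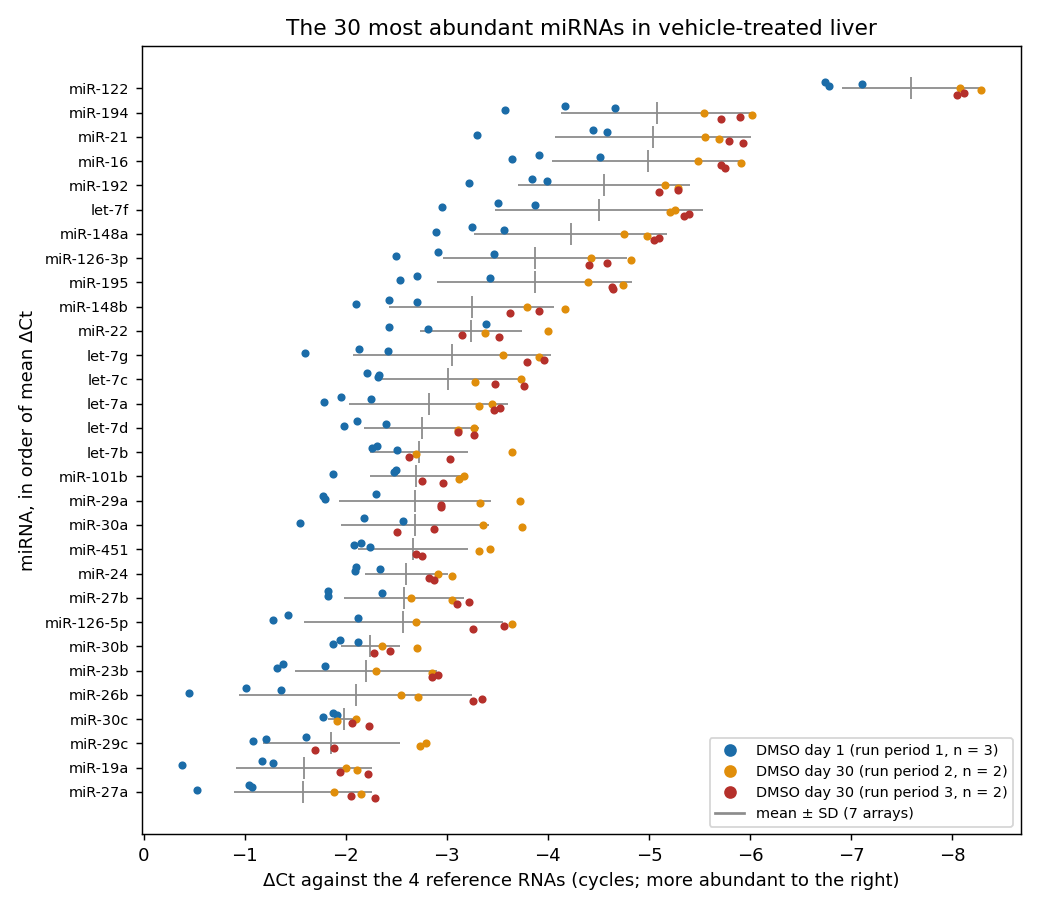
ΔCt in cycles of the 30 most abundant miRNAs in each of the 7 arrays, with points coloured by label and run period and a grey tick and bar for the mean ± SD (n = 7). miR-122, with a mean ΔCt of -7.59, stands apart from all others.

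By seed, 91 of the 248 matched miRNAs belonged to 30 families with 2 or more matched members. Their median rank was 74, and they held 39.1% ± 1.31 (SD, n = 7) of the summed level, against a median rank of 203 and 22.6% ± 1.66 for the 157 that shared their seed with no other matched miRNA. Relatives without a matched sequence, such as miR-23b at rank 25 beside miR-23a, were not counted. miR-122 had no matched sequence either and is in neither group, although it alone held 33.8% of the summed level. The shares of the groups therefore do not show whether families or single miRNAs held more of the total. The let-7 family held the largest share of any family, 11.3% ± 0.941 (SD, n = 7), with a range from 10.2% to 12.8%. The family with the seed AGCAGCA followed with 8.62% ± 1.26, and miR-148a, miR-148b and miR-152 together held 5.22% ± 0.618 (SD, n = 7 for each).

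Members of 1 family differed widely in level. Among the 9 of the let-7 family, let-7f led with a ΔCt of -4.51 ± 1.03, let-7g, let-7c, let-7a, let-7d and let-7b lay between -3.05 and -2.72, and let-7e, let-7i and miR-98 followed down to 1.21 ± 0.95 (SD, n = 7). let-7f and let-7a differ at 1 of 22 bases, and their mean ΔCt differed by 1.68. let-7c and let-7b also differ at 1 base, and their mean ΔCt differed by 0.29. The 6 members of the family of miR-17, miR-20a and miR-106a, known as promoters of proliferation, lay closer together, from -0.82 to 1.65. The family of miR-16 spanned 7.02 cycles, from -4.99 for miR-16 to 2.03 for miR-497.

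In most of the other families of 4 or more measured members, abundant members stood beside rare ones. miR-30a (-2.68 ± 0.73) and miR-30c (-1.98 ± 0.16) were among the first 27, while miR-384-5p, with the same seed, was at 11.44 ± 0.96 (SD, n = 7). miR-92a led its family at -0.43, and miR-363 was last at 10.46 ± 0.73 (SD, n = 7). miR-34a, a target of p53, had a ΔCt of 0.86, 1.62 and 0.66 in the arrays labelled day 1 and of 0.92, 1.51, 1.79 and 1.29 in those labelled day 30, which overlap. Its relatives were lower, miR-34b-5p at 6.15 ± 0.36, miR-449c at 7.55 ± 0.96 and miR-449a at 11.95 ± 1.38 (SD, n = 7 for each). In the family of miR-130a, levels ran from 2.84 for miR-130a to 14.85 for miR-721, which was last in the whole ranking. The 4 measured members of the family of miR-302b, miR-291a-3p and miR-295, known from embryonic stem cells, lay between 8.53 and 11.53. miR-30b, miR-30d and miR-34c were on the array and were not among the matched sequences.

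**Figure D2:**
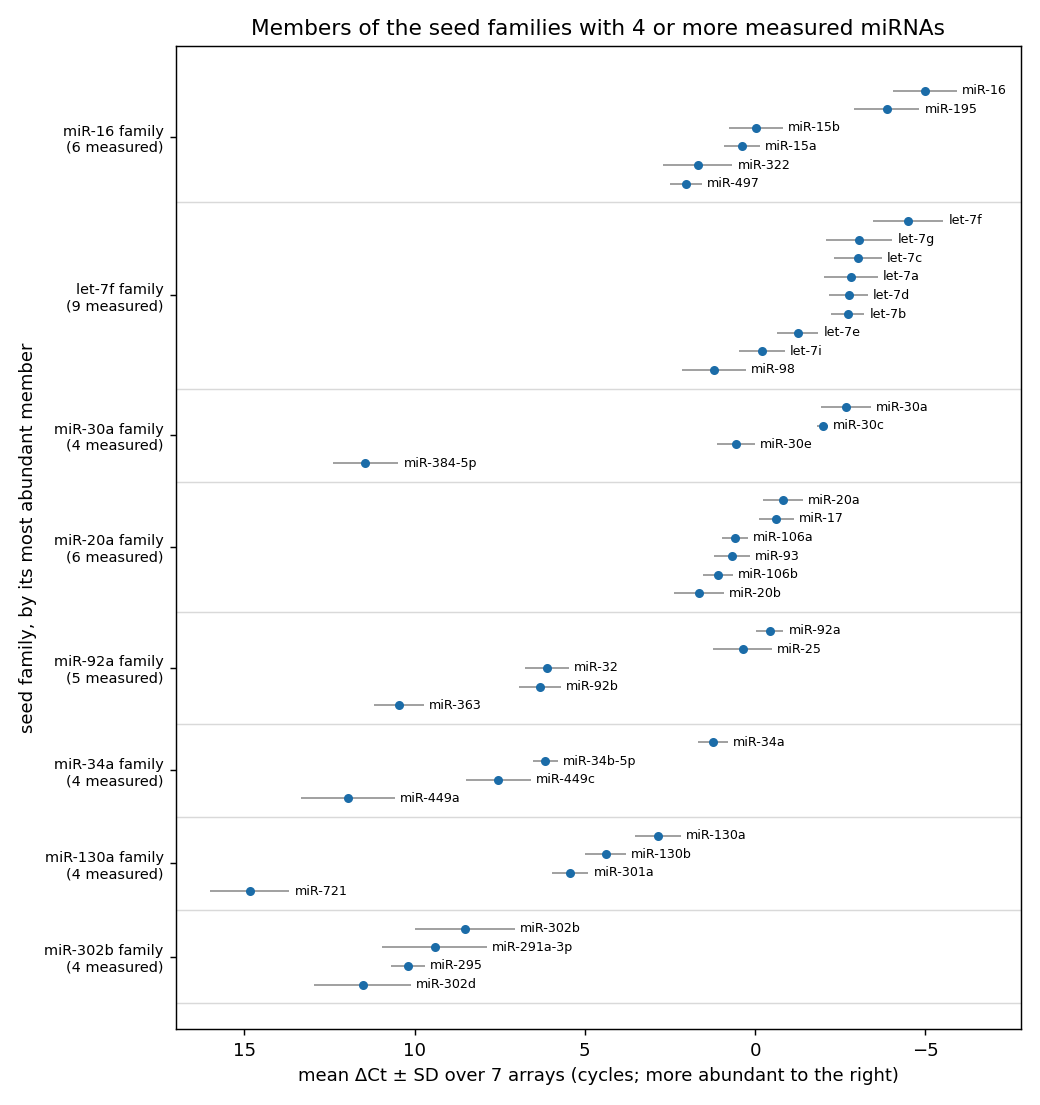
Mean ΔCt in cycles, with bars for the SD over 7 arrays, of the members of the 8 seed families with 4 or more measured miRNAs, each family named for its most abundant member. Points further right are more abundant, and the family of miR-130a spans 12.01 cycles while that of miR-20a spans 2.47.

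Hairpins that lie close together on a chromosome are often cut from 1 transcript, and their mature miRNAs can still differ in amount. The hairpins of miR-194 (copy 2) and miR-192 lie on chromosome 19, from 6264643 to 6264932 (GRCm38.p6, plus strand), within no gene of the annotation used here, and their mean ΔCt differed by 0.53. The other copy of miR-194 lies with miR-215 on chromosome 1, from 185313319 to 185313692 (plus strand), within the bounds of Iars2. There the mean ΔCt differed by 9.47, since miR-215 was at 4.39 ± 1.37 (SD, n = 7), and the assay for miR-194 does not tell its copies apart. miR-16 and miR-15b lie within Smc4 on chromosome 3, from 69009772 to 69009996 (plus strand), and differed by 4.95. The other copy of miR-16 lies with miR-15a within Dleu2 on chromosome 14 (minus strand), where the difference was 5.37, and the assay for miR-16 does not tell its copies apart either. miR-451 and miR-144, both known from red blood cells, lie on chromosome 11, from 78073005 to 78073241 (plus strand), and differed by 8.65. Of the most abundant miRNAs, miR-21 lies within Vmp1 on chromosome 11, from 86584067 to 86584158 (minus strand), and miR-126-3p within Egfl7, an endothelial gene, on chromosome 2, from 26591357 to 26591429 (plus strand).

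Abundant and rare miRNAs also differed in sequence. The ranking was divided into 4 tiers of 94 miRNAs, from the most to the least abundant. In the first tier, 50 of 78 matched miRNAs (64.1%) began with U, the base that Argonaute proteins favour at the first position, against 31 of 64 (48.4%), 19 of 53 (35.8%) and 21 of 53 (39.6%) in the following tiers. Members of families of 2 or more made up 53 of 78 (67.9%) in the first tier and 12 of 53 (22.6%) in the last. The median GC content was 43.2% in the first tier, 50% in the second and in the one after it, and 45.5% in the last, and the median length was 22 bases in each. The share of miRNAs with a matched sequence also differed between the tiers, 78 of 94 in the first and 53 of 94 in the last, and these shares are descriptions with no test.

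The levels of miRNAs associated with cell types were read from lists. Members of a list need not be confined to that cell type, so a list's share of the total is not the share of a cell type. The hepatocyte list had a median rank of 24, with 7 of its 10 members among the first 50, and held 49.7% ± 1.34 (SD, n = 7) of the summed level. miR-122, miR-194, miR-192, miR-148a and miR-22 were all among the first 11, miR-378 and miR-802 were at ranks 37 and 41, and miR-215, miR-193 and miR-33 were at ranks 108, 120 and 179. Both arms of the endothelial miR-126 were abundant, miR-126-3p at rank 8 (ΔCt -3.87 ± 0.91) and miR-126-5p at rank 23 (-2.57 ± 0.98; SD, n = 7). The stromal list had a median rank of 69, led by miR-125b-5p at rank 32 and miR-99a at rank 36. The leukocyte list had a median rank of 78, led by miR-146a at rank 39, miR-142-3p at rank 55 and miR-223, a miRNA of myeloid cells, at rank 59.

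Of the erythroid list, miR-451 was at rank 20 and miR-144 and miR-486 were at ranks 149 and 161. miR-451 had a ΔCt of -2.15, -2.08 and -2.24 in the arrays labelled day 1, -3.42 and -3.32 in day 30 replicates 1 and 2, and -2.70 and -2.76 in day 30 replicates 3 and 4. On this scale the 3 arrays labelled day 1 were the lowest in miR-451 and day 30 replicates 1 and 2 the highest, while against the array median the groups overlapped and the difference between day 30 and day 1 was -0.0174 in log2. The other erythroid members did not pass the test, with log2 differences between day 30 and day 1 of -0.16 for miR-144 and 0.06 for miR-486 against the reference RNAs, and of -1.06 and -0.84 against the array median, where the sign of miR-486 turned.

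Lists of cell types that liver lacks, or holds few of, lay below the middle of the ranking or near its end. The median rank was 257 for the neuronal list, 296.5 for the pancreas list, 304 for the embryonic stem cell list and 360 for the muscle list, against 188.5 for all miRNAs. The muscle list summed to between 7e-04% and 0.0139% of the total, with miR-1 at rank 164, above the middle of the ranking, miR-133a at rank 301, and miR-208, miR-208b and miR-133b at ranks from 360 to 366. Within the neuronal list, miR-137 and miR-128a stood out at ranks 97 and 100, and miR-219 at rank 148 and miR-138 at rank 169 also lay above the middle. The other members lay below it, among them miR-124 at rank 268 and miR-153 at rank 367. Within the embryonic stem cell list, miR-302c* was at rank 123 and every other member was at rank 223 or below. The epithelial list had a median rank of 124, ahead of the erythroid list at 149 and behind the other lists of liver cells, and was led by miR-203, a miRNA of keratinocytes, at rank 45 and miR-31 at rank 66.

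**Figure D3:**
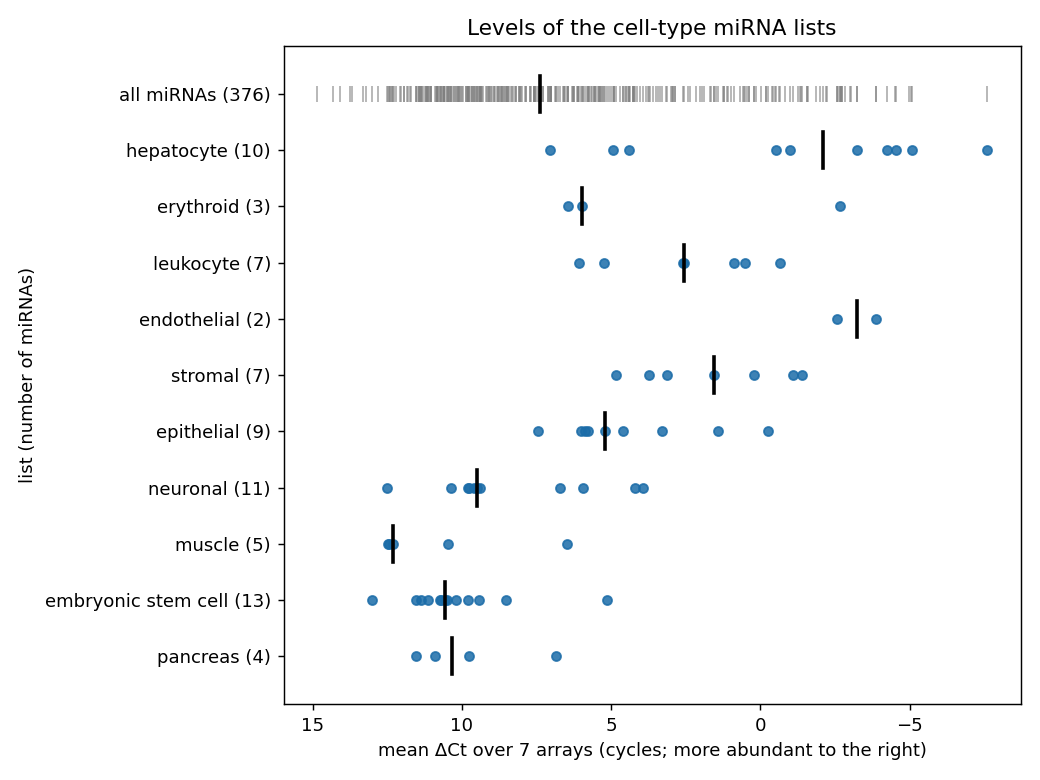
Mean ΔCt in cycles over 7 arrays of all 376 miRNAs (grey ticks) and of the members of each cell-type list (points), with a black bar for the median. The hepatocyte median, at -2.11, and the endothelial median, at -3.22, lie far to the abundant side of the median of all miRNAs, 7.37, and the muscle median, 12.30, far to the other.

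Both arms of a hairpin were measured for 47 miRNAs, and in 13 of these both arms had a mean Ct of at most 30. In 11 of the 13 pairs the same arm was ahead in every array, and in 8 the arms differed by more than 1 cycle. The widest difference was that of miR-125a, where the 5p arm was 6.35 ± 1.15 cycles ahead (SD, n = 7). In miR-342 the 3p arm was ahead by 5.68 ± 0.46, in miR-151 the 5p arm by 4.83 ± 0.41, in miR-142 the 3p arm by 4.72 ± 0.87, and in miR-139 the 5p arm by 2.42 ± 0.62 cycles (SD, n = 7 for each). The narrowest were miR-324, with arms 0.0042 cycles apart on average and the 5p arm ahead in 6 of 7 arrays, and miR-140, where the star arm was ahead by 0.40 ± 0.31 cycles (SD, n = 7) and in 6 of 7 arrays. miR-770 (0.48), miR-501 (0.83) and miR-574 (0.93) followed, and the other pairs were miR-126, miR-423 and miR-532. Among all 16 names with a star, miR-140* was the only one among the first 100.

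The arm difference needs no reference RNA, and it was compared between the arrays labelled day 30 and day 1. In limma, 3 of the 13 pairs (23.1%) shifted at an adjusted p under 0.05. In miR-142, a miRNA of blood cells, the 3p arm was ahead by 3.69, 4.10 and 3.88 cycles in the arrays labelled day 1 and by 5.05, 4.81, 6.00 and 5.51 in those labelled day 30, a shift of -1.45 ± 0.31 in 5p over 3p (SE; limma adjusted p = 0.008). The groups do not overlap, and the same held for miR-423, with -1.17 ± 0.30 (SE, limma adjusted p = 0.015), and for miR-574, with 0.86 ± 0.27 (SE, limma adjusted p = 0.0336). The lack of overlap was not particular to the called pairs. It also held for miR-770, miR-140 and miR-342, which were not called, while the rest of the 13 overlapped. miR-142 was called with any single array left out, miR-423 was lost without day 1 replicate 3 or day 30 replicate 2, and miR-574 was kept only without day 30 replicate 3 or 4. With the run period as a random block only miR-142 was called, and with the replicate number as a block none was (limma; 4 at an unadjusted p under 0.05). The count was 1 without day 30 replicate 2 and 5 without day 30 replicate 3, and no pair passed when all 47 were tested together (limma; 9 at an unadjusted p under 0.05).

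The spread between the arrays was wider for rare miRNAs. The SD of ΔCt over the 7 arrays had a median of 0.83 over all miRNAs, 0.67 in the first tier of the ranking, 0.64 in the second, 0.95 in the next and 1.21 in the last. Within a day label it was 0.27 in the first tier and 1.00 in the last. Among the 213 miRNAs whose mean Ct did not exceed 30, the steadiest against the reference RNAs was miR-30c, with -1.87, -1.92 and -1.78 in the arrays labelled day 1 and -2.10, -1.92, -2.07 and -2.23 in those labelled day 30 (SD 0.16, n = 7). miR-320 (SD 0.17), miR-425 (0.18), miR-345-5p (0.19) and miR-210 (0.21), a miRNA induced by low oxygen, followed. Against the median Ct of the array, the SD of these 5 was between 0.40 and 0.64.

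The most variable miRNAs of that range were miR-1, miR-466g, miR-489, miR-770-3p and miR-215. miR-1, the main miRNA of skeletal and heart muscle, had a ΔCt of 8.07, 4.19 and 9.65 in the arrays labelled day 1 and of 5.24, 5.52, 6.63 and 6.01 in those labelled day 30 (SD 1.85, n = 7). Its lowest and highest values were both among the arrays labelled day 1. The levels of miR-489 were 7.66, 7.30 and 5.60 in the arrays labelled day 1, 6.45 and 5.80 in day 30 replicates 1 and 2, and 9.20 and 9.40 in day 30 replicates 3 and 4, which stood apart.

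The order of the miRNAs was nearly the same under both day labels. Spearman's rho across the 376 miRNAs between the mean ΔCt of the 3 arrays labelled day 1 and of the 4 labelled day 30 was 0.972, given as a description since all points come from the same 7 arrays. The first 10 of both rankings had 9 miRNAs in common, the first 50 had 48 and the first 100 had 96, and 45 miRNAs were among the first 50 in all 7 arrays. A miRNA moved by 12 places in the median. Among the first 100, the largest moves were those of miR-137, from place 115 to 88, of miR-130a, from 70 to 91, and of miR-34a, from 53 to 71. miR-322 and miR-350 followed with 15 places each.

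The agreement was closer among the abundant miRNAs and was lowest in comparisons with the arrays of run period 3. For the 213 miRNAs at or below a mean Ct of 30, rho was 0.973, and for the 163 above it 0.750. The arrays labelled day 1 were run in period 1, day 30 replicates 1 and 2 in period 2 and day 30 replicates 3 and 4 in period 3, so that day label and run period cannot be told apart between the groups. Each run period also holds different mice, so that run period and mouse cannot be told apart either. Between the arrays of run periods 1 and 2, rho of the means was 0.986 for all miRNAs and 0.895 for those with a mean Ct above 30. Between run periods 1 and 3 it was 0.925 and 0.364, and between run periods 2 and 3, both labelled day 30, it was 0.930 and 0.377. In pairs of single arrays, each of the 10 pairs that joined run period 3 with another had a rho between 0.905 and 0.926 over all miRNAs, and every other pair was at 0.969 or above. The Ct of the first reverse transcription control well minus that of the second was also between -0.26 and -0.15 in the 5 arrays of run periods 1 and 2 and 0.28 and 0.30 in those of run period 3. The part of these wells in the result was not tested.

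**Figure D4:**
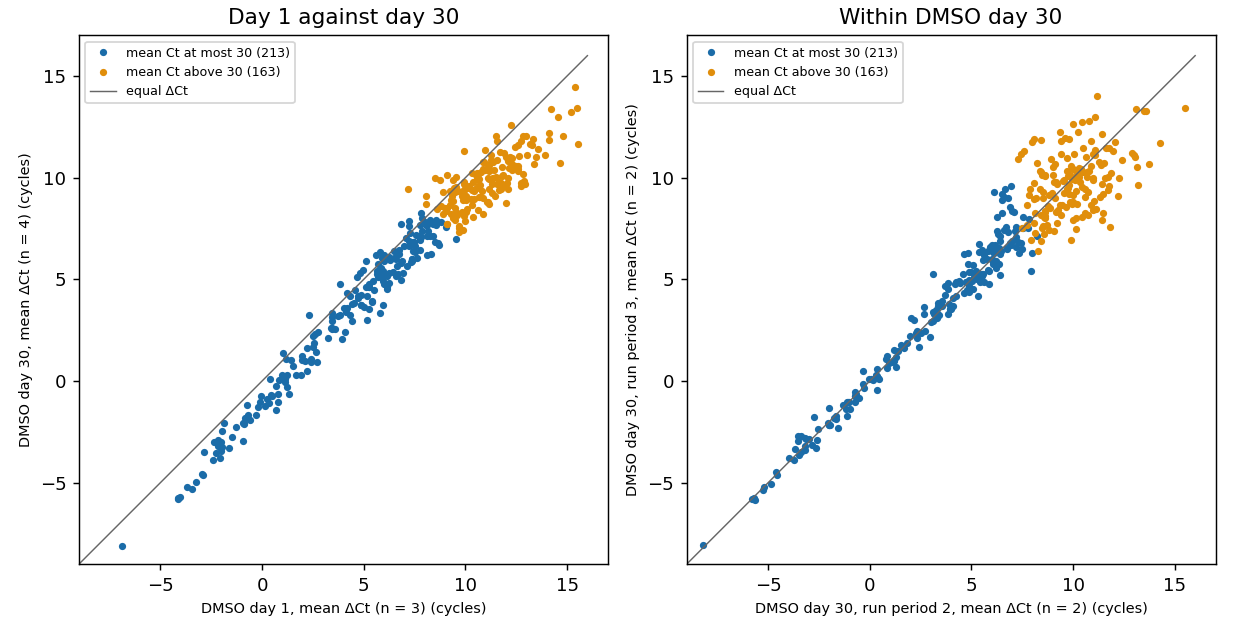
Mean ΔCt in cycles of each miRNA in the arrays labelled day 1 (n = 3) against day 30 (n = 4), left, and in run period 2 (n = 2) against run period 3 (n = 2) of the arrays labelled day 30, right. Between the run periods, rho was 0.971 for the 213 miRNAs at or below a mean Ct of 30 and 0.377 for those above, which scatter widely to both sides of the line.

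Within the day 30 label, 23 of 376 miRNAs (6.12%) differed between run periods 3 and 2 in limma at an adjusted p under 0.05, 8 higher and 15 lower in run period 3, and 40 (10.6%) with the array median in place of the reference RNAs. This comparison was added after the data were seen, and each side has 2 arrays. The miRNAs with the largest differences were rare ones. miR-742 had a ΔCt of 8.36 and 7.81 in run period 2 and of 11.68 and 12.11 in run period 3, while the arrays labelled day 1 were between 8.13 and 9.12. miR-759 went the other way, with 11.35 and 12.30 in run period 2 and 7.20 and 7.97 in run period 3. None of these 23 miRNAs was among the first 100 of the ranking, and the highest was miR-489 at rank 188.

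The levels themselves differed between the day labels, and how much depended on the scale. Averaged over the 4 reference RNAs, Ct was 21.2 ± 0.135 (SD, n = 3) with the day 1 label and 22.1 ± 0.265 (SD, n = 4) with the day 30 label, with no overlap (exact permutation test, two-sided, p = 0.0571). The median Ct of the miRNAs was 29.0 ± 0.205 and 29.0 ± 0.269 (exact permutation test, p = 0.943). All 4 reference RNAs had a higher mean Ct in the arrays labelled day 30, by 1.28 for snoRNA251, 1.18 for U6, 0.71 for snoRNA142 and 0.37 for snoRNA202. Against the reference RNAs, the median difference of all miRNAs on the -ΔCt scale, a log2 scale, was 1.00, and against the array median Ct it was 0.09. In limma, 154 of 376 miRNAs (41.0%) differed at an adjusted p under 0.05 against the reference RNAs, 153 of them higher at day 30 (40.7%), and 2 (0.532%) differed against the array median, where 65 had an unadjusted p under 0.05. Of these 65, 39 were higher and 26 lower at day 30. Among all 376, 341 lay above 0 against the reference RNAs and 208 against the array median. Without day 1 replicate 1 the 154 became 92, and with day 30 represented by run period 2 alone they became 72. Which of the scales is nearer to the amount of each miRNA was not tested.

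**Figure D5:**
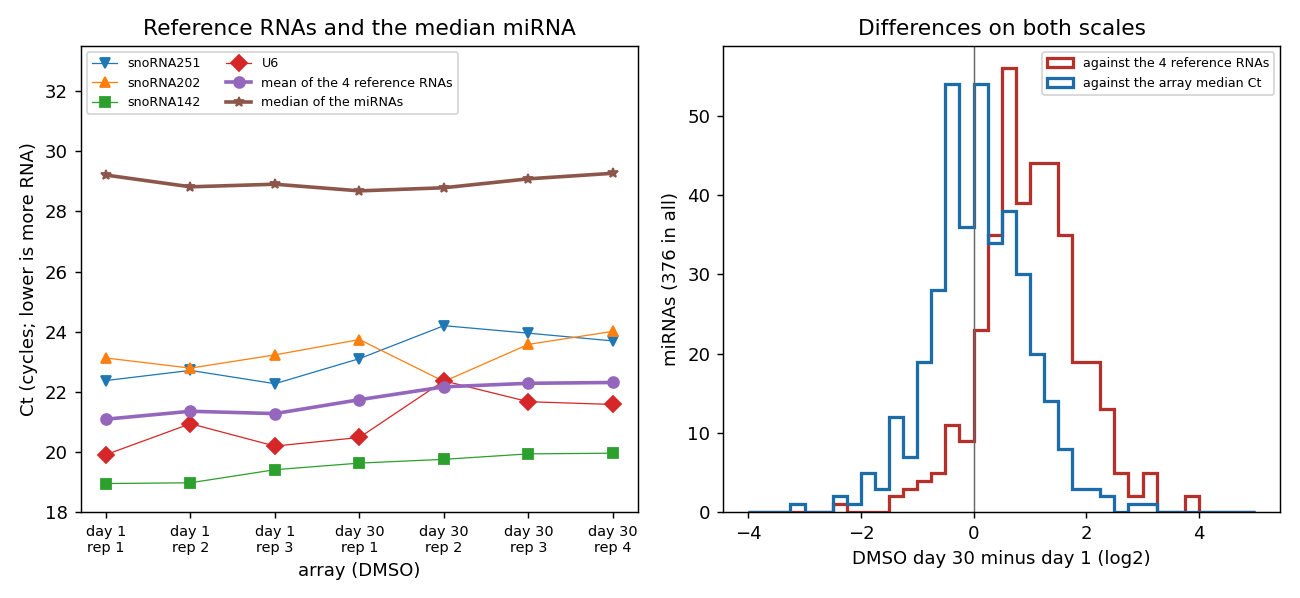
Left, the Ct in cycles of the 4 reference RNAs, of their mean and of the median miRNA in each array. Right, the number of miRNAs by their difference between the arrays labelled day 30 (n = 4) and day 1 (n = 3) in log2, whose median is 1.00 against the reference RNAs and 0.09 against the array median Ct.

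The most abundant miRNAs were mostly higher in the arrays labelled day 30 on the scale of the reference RNAs. Of the first 20, 16 were higher in the arrays labelled day 30 (limma, adjusted p under 0.05), against 40.7% of all miRNAs, and the groups did not overlap in 18, against 48.4% of all. Their median difference was 1.45 against the reference RNAs and 0.55 against the array median, where 16 lay above 0, none passed and miR-22, let-7b, miR-101b and miR-451 lay below 0. let-7f had a ΔCt of -3.51, -3.87 and -2.95 in the arrays labelled day 1 and of -5.26, -5.21, -5.40 and -5.34 in those labelled day 30, a log2 difference of 1.86 ± 0.27 (SE; limma adjusted p = 0.00707; exact permutation test, p = 0.0286, the smallest that 3 arrays against 4 allow). Against the array median, that difference was 0.96. By tier of the ranking, 66, 34, 28 and 25 of 94 miRNAs were called higher at day 30, while the median difference was 1.05, 0.64, 0.83 and 1.40, so that the rarest tier, with the widest spread, had the largest median and the fewest calls. Against the array median the tiers had 0, 0, 0 and 2 calls in limma (19, 19, 15 and 12 at an unadjusted p under 0.05), with medians of 0.14, -0.27, -0.07 and 0.50, below 0 in the middle tiers.

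For the 213 miRNAs at or below a mean Ct of 30, the 10 largest called differences were all towards higher levels at day 30. They belonged to miR-770-3p, miR-215, miR-340-3p, miR-137, miR-802, miR-547, miR-26b, miR-199b, miR-350 and miR-466f-3p, from 2.55 down to 1.90 on the log2 scale against the reference RNAs, and from 1.64 down to 0.99 against the array median, where none passed. miR-215, a relative of miR-192, had a ΔCt of 5.62, 5.29 and 6.47 in the arrays labelled day 1 and of 3.55, 3.07, 3.07 and 3.67 in those labelled day 30, a log2 difference of 2.45 ± 0.35 (SE; limma adjusted p = 0.00707). miR-802, a miRNA of hepatocytes and pancreas known for its part in glucose metabolism, was at 0.45, -0.11 and 1.76 and at -0.79, -1.42, -2.03 and -1.45, a log2 difference of 2.12 ± 0.50 (SE; limma adjusted p = 0.0156). miR-130b was the only miRNA called lower, with 3.51, 4.37 and 3.67 in the arrays labelled day 1 and 4.45, 4.98, 5.00 and 4.74 in those labelled day 30, a log2 difference of -0.94 ± 0.29 (SE; limma adjusted p = 0.0391). This call was lost with 5 of the 7 arrays left out in turn, namely day 1 replicates 1 and 3 and day 30 replicates 2, 3 and 4. Against the array median its difference was -1.84 (limma adjusted p = 0.169).

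The lists and families were read against the 40.7% of all miRNAs that were higher at day 30. That share depended on abundance, with 70.2% in the first tier of the ranking and 26.6% in the last. All members of the endothelial list and of the families of let-7, miR-16 and miR-17 were in the first tier. No list or family was compared with miRNAs of like abundance. On the scale of the reference RNAs, 6 of 10 in the hepatocyte list, 2 of 2 in the endothelial, 5 of 7 in the stromal, 4 of 7 in the leukocyte, 6 of 9 in the epithelial, 1 of 3 in the erythroid, 5 of 11 in the neuronal, 2 of 13 in the embryonic stem cell, 1 of 4 in the pancreas and 0 of 5 in the muscle list were higher, and no member of these lists was lower. The erythroid member was miR-451, whose call was lost without any of the arrays labelled day 1 and without day 30 replicate 1 or 2. The lists' median differences lay between 0.06 for the erythroid list and 1.66 for the embryonic stem cell list, beside 1.00 for all miRNAs. In the let-7 family 8 of 9 members and in the family of miR-17 all 6 were higher, while in the family of miR-130a none was higher and miR-130b was lower. Against the array median, let-7b (-0.26), miR-106a (-0.21) and miR-106b (-0.15) lay below 0, and the other members of the families of let-7 and miR-17 lay above it. In the remaining families of 4 or more, 5 of 6 were higher in that of miR-16, 4 of 5 in that of miR-92a, and 1 of 4 in each of those of miR-30a, miR-34a and miR-302b. Against the array median, the 2 miRNAs called were miR-654-5p and miR-380-5p, at ranks 364 and 288 and in no list, with log2 differences of 3.02 ± 0.45 and 2.33 ± 0.35 (SE; limma adjusted p = 0.0313 for both).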

How the data were processed

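The values the authors deposited are Ct values, 1 per well and not yet normalized, which SDS (version 2.3) had computed at a threshold line of 0.15. Small RNA from liver had been reverse transcribed and measured with SYBR Green over 40 cycles. The wells were named by the study's own list of miRNAs. The 7 arrays of vehicle-treated mice were kept and the 28 of ENU-treated mice were left out. The 1 Undetermined well, of miR-743b-5p in day 30 replicate 1, was treated as missing, so that its values rest on 6 arrays.

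The average Ct of the 4 reference RNAs was subtracted to give ΔCt, following the study's methods. Levels, ranks, SD, rho and shares are descriptions. Day 30 was compared with day 1 on -ΔCt in limma (version 3.58.1, R version 4.3.3, two-sided, Benjamini-Hochberg over all miRNAs or all arm pairs, threshold 0.05), and single miRNAs by an exact permutation test over the 35 splits of 7 arrays into 3 and 4. The limma fit was checked on simulated data. These had independent miRNAs, no shift common to all miRNAs and no run periods, so the check cannot tell which scale is nearer to the amounts. Tables and figures were made in Python 3.11.15 with pandas 2.3.3, scipy 1.17.1, numpy 2.4.6 and matplotlib 3.10.9. Hairpins at most 10000 bases apart on 1 strand were taken as neighbours. Run periods came from the run times in the arrays' records.

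The members, lists and tests were chosen with earlier results of these data known. Named are the first 20 in the ranking, the list members, members of seed families with 4 or more measured miRNAs, the 5 steadiest and 5 most variable and the 10 with the largest called differences among those whose mean Ct did not exceed 30, the 5 largest moves in rank among the first 100, and the arm pairs. miR-24, miR-23a, miR-23b, miR-654-5p, miR-380-5p, miR-742, miR-759, miR-130b as the 1 lower call, and the hairpin neighbours were named after their values were seen. Alternatives were the array median Ct, each reference RNA left out, a Ct of 40 for the Undetermined well, a ceiling at a Ct of 35, the 213 miRNAs at or below a mean Ct of 30 alone, each array left out, the replicate block, the run period as a block, and the methods' t-test (p under 0.01 and fold change above 2). Day 30 was also represented by the arrays of run period 2 alone and by those of run period 3 alone. The number of arrays limits the precision, no sequencing depth applies, and p values measure the spread between mice within a day label, which for day 30 includes the difference between run periods 2 and 3.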

Additional observations from a re-analysis of the deposited data

Results flagged for a closer look

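Of 100 values examined for a single array far from the others, in the 4 arrays labelled day 30 or in all 7, 2 were set apart, where chance flags about 1 in 20. The arm difference of miR-324 (5p over 3p, log2) was -0.82 in day 1 replicate 3 and between 0.0043 and 0.27 in the other 6 arrays. The median rank of the muscle list was 226 in day 30 replicate 4 and between 322 and 352 in the other 6 arrays.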

How the results depend on the processing

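The ranking kept 18 to 20 of its first 20 miRNAs, rho stayed between 0.956 and 0.980, and the share of the first 10 between 69.1% and 70.4% with each array left out in turn. The median SD of 0.83 was 0.62 with the array median, 0.95 without snoRNA202, 0.67 up to a mean Ct of 30, 2.20 as a range in place of an SD, 0.75 without run period 3 (added after the data were seen), and from 0.78 to 0.86 with an array left out. Up to a mean Ct of 30, the median rank was 124 for the 4 neuronal members that remained, and the lists of muscle, embryonic stem cell and pancreas each kept 1 member, miR-1 (164), miR-302c* (123) and miR-375 (172). With an array left out, the list medians were 303 to 311 (embryonic stem cell), 13.5 to 16 (endothelial), 122 to 132 (epithelial), 144 to 152 (erythroid), 23 to 24 (hepatocyte), 353 to 361 (muscle), 250 to 265 (neuronal), 289.5 to 300.5 (pancreas) and 67 to 70 (stromal).

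The 154 miRNAs that differed between day 30 and day 1 became 2 with the array median, 72 with run period 2 alone for day 30, 89 by the methods' t-test with its fold change (133 after Benjamini-Hochberg), 0 by the exact test after adjustment (130 before; the smallest p of 0.0286 could pass only if far more miRNAs reached it, so this 0 says nothing about stability), and 92 (without day 1 replicate 1) to 166 with an array left out. Against the array median, miR-22 (-0.27), let-7b (-0.26), miR-101b (-0.19) and miR-451 (-0.0174) turned below 0. Run periods 3 and 2 (added after the data were seen) differed in 23 miRNAs, and in 40 with the array median.

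The 3 arm pairs became 0 with all pairs tested (limma; 9 had an unadjusted p under 0.05), 1 with the run period as a random block, and 1 (without day 30 replicate 2) to 5 (without day 30 replicate 3). Same-numbered arrays come from different mice, and their deviations correlated at 0.08, 0.06 and 0.08. A block for the replicate number left 123 miRNAs and 0 arm pairs called (limma; 4 pairs at an unadjusted p under 0.05), and a random block for run period left 108 miRNAs. The causes were not tested. Above a mean Ct of 30, the order in the arrays of run period 3 differed from that in the others, which limits what can be ranked there.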
